A study of Mus musculus with 8 samples.

Results

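The annexins and the S100 proteins are families of calcium-binding proteins, and 10 of their genes were followed here in the retinal pigment epithelium (RPE), namely the annexins *Anxa1*, *Anxa2*, *Anxa4*, *Anxa5* and *Anxa6* and the S100 genes *S100a1*, *S100a6*, *S100a10*, *S100a11* and *S100b*. These 10 genes were given as a list of names, matched by gene symbol to the 31053 identifiers counted, and all 10 were among the 12889 genes that passed the filter of at least 1 CPM (counts scaled to a library of standard size) in at least 4 of the 8 libraries. RNA came from RPE sheets peeled at postnatal day (P) 29 from 4 wild type (*Bbs8*+/+) and 4 *Bbs8* knockout (*Bbs8*-/-) C57/Bl6 mice, which were littermates of undetermined sex with no treatment. The knockout is constitutive, so every cell of the eye lacked *Bbs8* and not the RPE alone, and each animal gave 1 library. In these bulk libraries, fewer cells of a type and less RNA per cell cannot be told apart.

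Annexins bind phospholipid membranes when calcium is present, each through a repeated core domain, and take part in membrane repair, vesicle traffic and, at the cell surface, in the binding of plasminogen and of phosphatidylserine. S100 proteins are small dimers that bind calcium through a pair of helix-loop-helix motifs called EF-hands, after which they expose a face that binds target proteins, several annexins among them. The RPE is the pigmented monolayer that supports the photoreceptors and engulfs the tips of their outer segments. *Bbs8*, whose gene symbol is *Ttc8*, encodes a subunit of the BBSome, a protein coat that carries membrane proteins in and out of cilia.

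*Ttc8* was counted 105, 142, 144 and 116 times in *Bbs8*+/+ libraries 1 to 4, against 15, 5, 14 and 15 times in *Bbs8*-/- libraries 1 to 4, a log2 difference of -3.34 (SE 0.294, adjusted p = 2.48e-11, edgeR) that followed the genotype labels in all 8 libraries. Each library held between 2389835 and 3093428 counts on genes, and the floor used here, 3 counts of a gene, amounted to 1.02 to 1.23 CPM, which covers counting error only. *Bbs8*+/+ library 1 stood apart from the other libraries on the second principal component (12.7% of the variance), while the first (47.6%) separated the genotypes. Of the 11 RPE markers all but *Best1* were counted in every library, with *Rpe65*, the retinoid isomerase, between 3873 and 4858 CPM. *Best1* reached at most 5 counts in a library and was at 0 in *Bbs8*+/+ library 1 and *Bbs8*-/- libraries 1 and 2. Markers of other ocular tissues were present too and moved with genotype, and their values stand beside the results that they touch. Every CPM value below is scaled by the trimmed mean of M-values (TMM).

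Of the 10 genes, only *S100b* passed the test between the genotypes. It was lower in the *Bbs8*-/- RPE, and none of the 10 was called higher. That is 1 of 10 (10.0%), beside 12.3% of all genes tested, of which 5.46% (704) were called higher and 6.80% (877) lower. With libraries scaled by size alone in place of TMM the split over all genes was 1008 higher and 654 lower. In edgeR's quasi-likelihood test 3 of the 10 had an unadjusted p under 0.05, beside 23.4% of all genes tested. These were *Anxa2* and *Anxa5* on the higher side and *S100b* on the lower side, and DESeq2 likewise called 0 of the 10 higher and 1 lower. The count of 0 higher became 2 (*Anxa2* and *S100a1*) with libraries scaled by size alone and 1 (*Anxa2*) with edgeR's own filter on low counts. Ranges without overlap between the genotypes were seen for 1 of the 10 (10.0%), again *S100b*, beside 16.1% of all genes tested. The median log2 difference of the 10 was 0.14, with 7 genes on the higher and 3 on the lower side, and the median over all genes tested was 0.02. The shares called and not overlapping were thus close to those of all genes. The plot of the 10 genes by library shows the spread behind these counts.

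**Figure D1:**
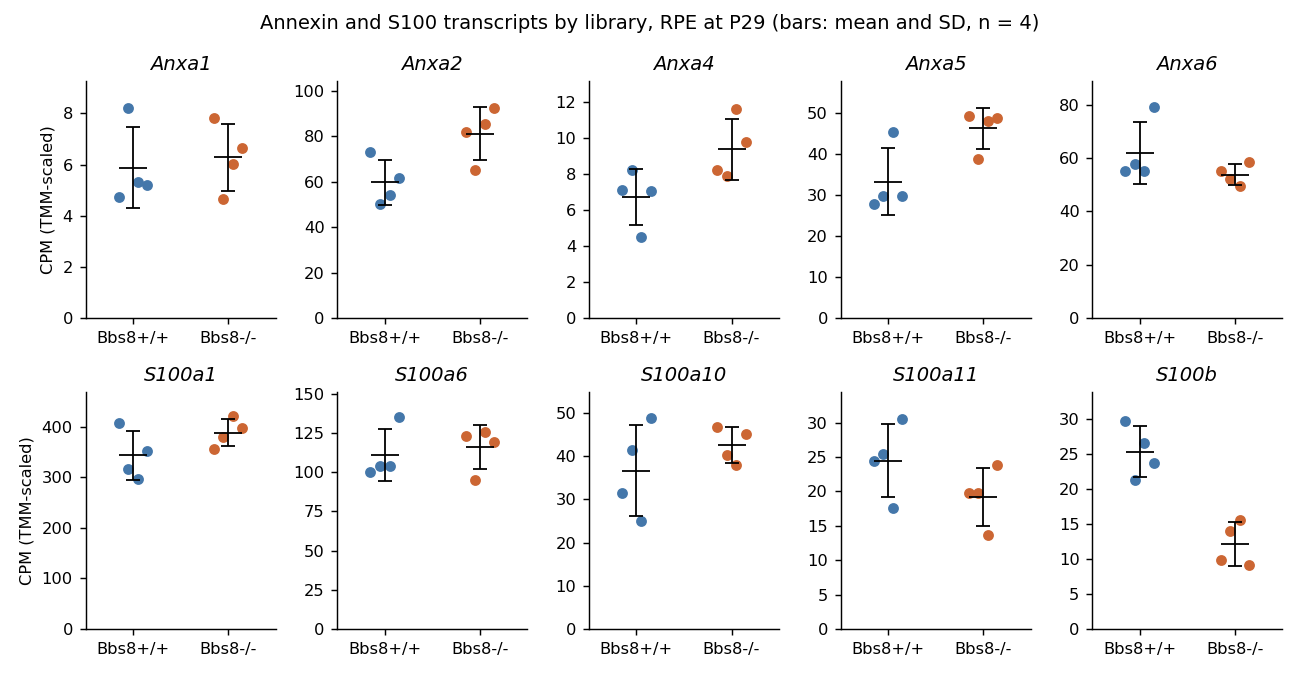
TMM-scaled CPM of the 10 annexin and S100 genes (vertical axes, each from 0) in the 4 *Bbs8*+/+ (blue) and 4 *Bbs8*-/- (orange) libraries, with black bars for the mean and SD. The *S100b* points of the genotypes do not overlap, at 21.3 to 29.8 and 9.10 to 15.6 CPM, and those of the other 9 genes do.

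The S100 genes encode the calcium site of the protein in a short stretch of coding sequence, and this stretch is shown because it sets *S100a10* apart from the other S100 genes shown. The loop of the second EF-hand holds a calcium ion. Positions 1, 3, 5, 6 and 12 of the loop were compared with the canonical pattern, which matches letters and does not measure calcium binding. The 36 coding bases of that loop, assembled from the transcripts of the GRCm38 annotation, are given 5′ to 3′ on the coding strand. Capitals mark codons that encode a canonical residue at 1 of these 5 positions (aspartate at 1, aspartate, asparagine or serine at 3 and 5, glycine at 6 and glutamate at 12).
S100a1: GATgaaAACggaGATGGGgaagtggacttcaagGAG
S100a6: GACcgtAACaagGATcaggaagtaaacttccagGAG
S100a10: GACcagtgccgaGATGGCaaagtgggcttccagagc
S100a11: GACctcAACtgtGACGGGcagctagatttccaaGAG
S100a16: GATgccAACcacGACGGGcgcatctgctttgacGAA
*S100a1*, *S100a11* and *S100a16*, a further S100 gene taken up below, held all 5 canonical positions, *S100a6* held 4 and *S100a10* held 3. *S100a10* is the S100 protein known to have lost calcium binding, and its loop had neither the canonical residue at position 3 nor the glutamate at position 12. Because their loops did not match the full pattern, those of *S100a6* and *S100a10* were placed by aligning the proteins to that of *S100b*. The loops of *S100a1* (chr3:90511284-90511319, minus strand), *S100a6* (chr3:90614233-90614268), *S100a11* (chr3:93526037-93526072), *S100a10* (chr3:93564288-93564323) and *S100a16* (chr3:90542410-90542445, all 4 on the plus strand) are each within a coding exon of chromosome 3. Over the whole protein, the residues identical to those of S100b made up 57.4% for S100a1, 39.1% for S100a6, 37.1% for S100a10, 35.7% for S100a11 and 23.4% for S100a16, so *S100a1* was the gene of the list closest to *S100b* by sequence.

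*S100b* encodes the S100 protein best known from astrocytes and Schwann cells, where it serves as a marker and, once released, as a ligand of the receptor Ager. It lies apart from most of its family, on chromosome 10 (76253853 to 76261159, plus strand). It was counted 88, 57, 65 and 64 times in *Bbs8*+/+ libraries 1 to 4, against 24, 39, 39 and 26 times in *Bbs8*-/- libraries 1 to 4, or 29.8, 21.3, 26.6 and 23.8 CPM and 9.87, 13.996, 15.6 and 9.10 CPM. The lowest *Bbs8*+/+ library was above the highest *Bbs8*-/- library. The mean fell from 25.4 ± 3.68 to 12.2 ± 3.16 CPM (SD, n = 4), a fold of 0.479 with a 95% interval of 0.326 to 0.702. On the log2 scale this was -1.06 (SE 0.273, adjusted p = 0.00599, edgeR's quasi-likelihood test). *S100b* was called under all 16 alternative settings run, with log2 values between -1.20 and -0.94 and adjusted p between 0.00210 and 0.0276. Without *Bbs8*+/+ library 1, which stood apart, it was -0.97 (adjusted p = 0.0229).

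Glial marker lists differed in how they stood beside the fall of *S100b*. The summed markers of Schwann cells and oligodendrocytes (8 of 9 tested, 0 called) lay between 261 and 329 CPM in *Bbs8*+/+ and between 260.0 and 329 CPM in *Bbs8*-/- RPE (two-sided exact permutation test, p = 0.714, adjusted p = 0.765 over 15 marker lists). Without *Sox10*, its most abundant gene and a melanocyte marker too, that list was at 149 to 161 CPM and 116 to 162 CPM. The markers of Müller glia and astrocytes (12 of 12 tested, 5 called higher and 1 lower) stood higher in *Bbs8*-/- RPE, at 6887 to 7595 CPM in *Bbs8*+/+ and 8308 to 8835 CPM in *Bbs8*-/-. *Apoe*, the most abundant gene of that list, had means of 4117 CPM in *Bbs8*+/+ and 4865 CPM in *Bbs8*-/- RPE. Without *Apoe* the list was at 2995 to 3270 CPM and 3658 to 3865 CPM, with no overlap. Members of the list went both ways. *Gfap*, the astrocyte filament protein, counted among the reactive glia markers too, rose from 1.07 ± 1.12 to 5.78 ± 2.19 CPM (log2 difference 2.41, SE 0.803, adjusted p = 0.0417). *Glul*, another of the 5 called higher, rose from 1201 ± 80.1 to 1712 ± 57.8 CPM (log2 difference 0.51, SE 0.0643, adjusted p = 1.22e-07). *Slc1a2*, a glutamate transporter, was the 1 gene called lower (log2 difference -0.58, SE 0.100, adjusted p = 3.86e-05). *Aldh1l1*, an astrocyte enzyme, had a log2 difference of -0.50 without a call (SE 0.311, adjusted p = 0.351). The markers of microglia and macrophages (10 of 11 tested, 0 called) were at 356 to 456 CPM and 322 to 367 CPM, with overlap. Without *Csf1r*, its most abundant gene, that list was at 69.2 to 81.2 CPM and 62.1 to 96.6 CPM, also with overlap.

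Marker lists of other tissues were lower in the same libraries as *S100b*. The summed photoreceptor markers (16 of 16 tested, 11 called lower and 3 higher) went from between 54874 and 58561 CPM to between 22797 and 23501 CPM, or 0.407 of the *Bbs8*+/+ mean. The lens markers (11 of 11 called lower) went from between 3069 and 3314 CPM to between 552 and 602 CPM, and the erythrocyte markers (5 of 6 tested called lower) from between 5165 and 5730 CPM to between 1989 and 2222 CPM. None of the genes of these lists was at 0 throughout. Summed RPE markers lay between 31689 and 32786 CPM in *Bbs8*+/+ and between 40432 and 43805 CPM in *Bbs8*-/- RPE, with 3 of 11 genes called higher and 3 lower, but *Ttr*, the carrier transthyretin, made up most of this sum. Without *Ttr* the other 10 RPE markers ran the other way, from between 11177 and 11743 CPM to between 10256 and 10522 CPM. For each list whose ranges did not overlap the two-sided exact permutation p was 0.0286, the smallest that 4 libraries against 4 allow, and 0.0612 after adjustment over the 15 lists. The sums of melanocyte, fibroblast, smooth muscle and endothelium markers overlapped between the genotypes, at 0.843 (fibroblasts) to 1.08 (endothelium) of the *Bbs8*+/+ mean. Of the 9 fibroblast genes 2 were called lower (*Col1a1* and *Col3a1*) and 7 stood on the lower side. Without *Dcn*, its most abundant gene, the fibroblast list was at 719 to 1001 CPM and 599 to 792 CPM, with overlap (0.772 of the *Bbs8*+/+ mean). Of the 7 melanocyte genes 2 were called higher. Without *Dct*, its most abundant gene, the melanocyte list was higher in *Bbs8*-/- RPE (403 to 447 CPM and 507 to 554 CPM). The smooth muscle and endothelium lists held no call. The part of these tissues in the fall of *S100b* was not tested.

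**Figure D2:**
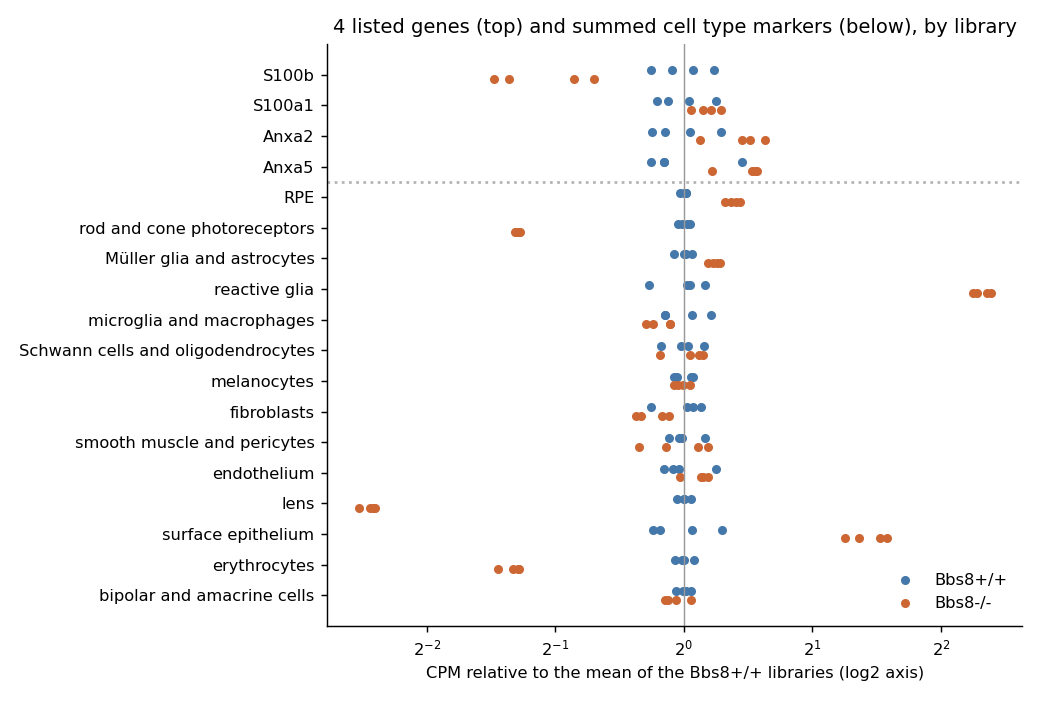
CPM of *S100b*, *S100a1*, *Anxa2* and *Anxa5* (top 4 rows) and summed CPM of marker lists (rows below) in each library, relative to the mean of the 4 *Bbs8*+/+ libraries on a log2 axis, in blue for *Bbs8*+/+ and orange for *Bbs8*-/-. The orange points of *S100b* lie to the left, as do those of the photoreceptor, lens and erythrocyte lists, while those of the Müller glia, reactive glia and surface epithelium lists lie to the right, as does the RPE list, which without *Ttr* lies to the left (0.913 of the *Bbs8*+/+ mean).

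The remaining S100 genes of the list gave no call. *S100a1*, known from heart muscle as a modulator of calcium release, was the most abundant of the 10 genes, at 408, 316, 297 and 353 CPM in *Bbs8*+/+ and 357, 380.05, 420.5 and 397 CPM in *Bbs8*-/- libraries. The ranges overlapped through *Bbs8*+/+ library 1, and the log2 difference was 0.18 (SE 0.0936, adjusted p = 0.258) with a 95% interval of 0.991 to 1.29 on the fold. Without *Bbs8*+/+ library 1 the difference was 0.27 and passed the test (adjusted p = 0.0207), and with libraries scaled by size alone it did so too (0.27, adjusted p = 0.0484). *S100b* counts amounted to 7.44 ± 1.05% of *S100a1* counts in *Bbs8*+/+ and 3.12 ± 0.703% in *Bbs8*-/- RPE (SD, n = 4), with no overlap between 6.75% to 8.97% and 2.29% to 3.72%.

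*S100a6*, or calcyclin, a protein of proliferating epithelia and fibroblasts, was between 100.0 and 136 CPM in *Bbs8*+/+ and between 95.1 and 126 CPM in *Bbs8*-/- RPE. Its log2 difference was 0.06 (SE 0.129, adjusted p = 0.837), and the interval of the fold ran from 0.871 to 1.25. *S100a11*, which binds *Anxa1* and has a part in the repair of the plasma membrane, was between 17.6 and 30.5 CPM and between 13.6 and 23.8 CPM (log2 difference -0.35, SE 0.254, adjusted p = 0.456). It was also the only gene of the list whose transcript end, the part read by this method, was shared with others. Of its 451 stretches of 50 bases there, 190 occur also in *Gm12854*, *Gm29240* or *Gm7665*, so its counts of uniquely mapped reads are uncertain.

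*S100a10* was between 25.0 and 48.8 CPM in *Bbs8*+/+ and between 38.1 and 46.9 CPM in *Bbs8*-/- RPE (log2 difference 0.21, SE 0.201, adjusted p = 0.590). Its protein joins a pair of *Anxa2* molecules into a complex that holds plasminogen and its activators at the cell surface. The ratio of *S100a10* to *Anxa2* counts was 0.433, 0.822, 0.462 and 0.789 in *Bbs8*+/+ libraries 1 to 4, beside 0.573, 0.615, 0.446 and 0.489 in *Bbs8*-/- libraries 1 to 4. The ranges of this ratio overlapped, with means of 0.627 ± 0.208 and 0.531 ± 0.0772 (SD, n = 4).

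Among the annexins, 4 of 5 stood on the higher side in *Bbs8*-/- RPE and none was called. *Anxa2* came nearest, at 72.9, 50.4, 54.1 and 61.8 CPM in the *Bbs8*+/+ and 81.9, 65.3, 85.4 and 92.4 CPM in the *Bbs8*-/- libraries. *Bbs8*+/+ library 1 was above *Bbs8*-/- library 2, and the other libraries kept apart by genotype. The means were 59.8 ± 9.94 and 81.2 ± 11.5 CPM (SD, n = 4), a fold of 1.36 with a 95% interval of 1.09 to 1.68 and a log2 difference of 0.44 (SE 0.154, unadjusted p = 0.00718, adjusted p = 0.0565, edgeR). The call depended on single libraries and on scaling. *Anxa2* passed without *Bbs8*+/+ library 1 (0.55, adjusted p = 0.0121), without *Bbs8*-/- library 2 (0.53, adjusted p = 0.0260), with scaling by library size alone (0.53, adjusted p = 0.0165) and with edgeR's own filter on low counts (0.45, adjusted p = 0.0438), and in none of the 12 other alternatives. *Anxa2* shares exon bases with *Gm16144* on the opposite strand, and *Anxa4* with *Gm44036*. Whether counting used strand is not given in the sources used here, so the reads of each pair may not have been told apart.

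*Anxa5*, whose protein binds exposed phosphatidylserine and is used to stain dying cells, was at 27.8, 29.9, 45.5 and 29.8 CPM in the *Bbs8*+/+ and 49.4, 38.8, 48.1 and 48.7 CPM in the *Bbs8*-/- libraries. *Bbs8*+/+ library 3 and *Bbs8*-/- library 2 each lay apart from their group and in the range of the other. The fold was 1.39 with a 95% interval of 1.06 to 1.84, and the log2 difference was 0.48 (SE 0.196, unadjusted p = 0.0194, adjusted p = 0.116). Without *Bbs8*+/+ library 3 it was 0.66 and passed the test (adjusted p = 0.0359).

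*Anxa6*, the annexin with a doubled core domain, encoded by 673 residues where the other annexins of the list had 319 to 346, was on the lower side. It stood between 55.3 and 79.3 CPM in *Bbs8*+/+ and between 49.7 and 58.5 CPM in *Bbs8*-/- RPE (log2 difference -0.20, SE 0.162, adjusted p = 0.509). Its protein had 5 matches to GXGT, the glycine and threonine motif of annexin calcium sites in which X is any residue, beside 3 in those of *Anxa4* and *Anxa5* and 2 in those of *Anxa1* and *Anxa2*. *Anxa4*, an annexin of secretory epithelia, was low, at 4.50 to 8.22 CPM and 7.90 to 11.6 CPM (log2 difference 0.47, SE 0.401, adjusted p = 0.538). *Anxa1*, the ligand of formyl peptide receptors that restrains neutrophils, was the lowest, with between 13 and 22 counts in every library (log2 difference 0.09, SE 0.470, adjusted p = 0.942). At this depth its 95% interval, from a fold of 0.551 to 2.07, was wide, so the data do not exclude a change inside it. The smallest change that the test could detect was not determined. Without *Bbs8*-/- library 1 the sign of *Anxa1* turned (-0.022).

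**Figure D3:**
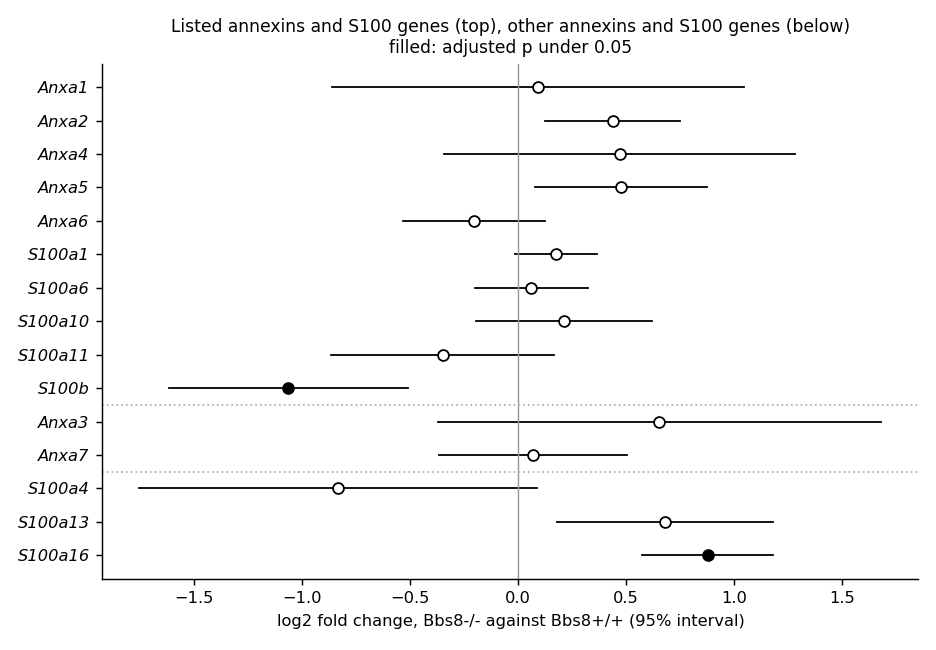
Log2 fold change of *Bbs8*-/- against *Bbs8*+/+ RPE (horizontal axis) with its 95% interval for the 10 listed genes and the 5 other annexin and S100 genes that passed the filter, filled where the adjusted p was under 0.05. Only *S100b* at -1.06 and *S100a16* at 0.88 are filled, and the intervals of *Anxa2*, *Anxa5* and *S100a13* lie above 0 without a call.

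The levels of the 10 genes kept much of their order between the genotypes. QuantSeq reads the 3′ end of each transcript, so CPM values of different genes do not scale with transcript length and are compared here as levels per 3′ end. In *Bbs8*+/+ RPE *S100a1* (343 ± 49.1 CPM) was followed by *S100a6* (111 ± 16.5 CPM), *Anxa6* (61.9 ± 11.6 CPM) and *Anxa2* (59.8 ± 9.94 CPM), of which *Anxa6* and *Anxa2* overlapped. *S100a10* (36.7 ± 10.5 CPM), *Anxa5* (33.2 ± 8.20 CPM), *S100b* (25.4 ± 3.68 CPM) and *S100a11* (24.5 ± 5.31 CPM) came next, each overlapping its neighbour. *Anxa4* (6.73 ± 1.58 CPM) and *Anxa1* (5.88 ± 1.58 CPM) were below all of these and overlapped each other. In *Bbs8*-/- RPE *Anxa2* (81.2 ± 11.5 CPM) stood above *Anxa6* (53.8 ± 3.80 CPM) with no overlap, *Anxa5* (46.2 ± 5.0003 CPM) overlapped *S100a10* (42.6 ± 4.13 CPM), and *S100b* (12.2 ± 3.16 CPM) lay between *S100a11* (19.2 ± 4.20 CPM) and *Anxa4* (9.39 ± 1.71 CPM) and overlapped both. Summed over the 5 annexins the level was 168 ± 11.8 CPM in *Bbs8*+/+ and 197 ± 20.1 CPM in *Bbs8*-/- RPE, and summed over the 5 S100 genes 541 ± 61.9 and 578 ± 30.8 CPM (SD, n = 4), with overlap between the genotypes in both sums. *S100a1* alone made up 63.4 ± 3.83% and 67.1 ± 2.29% of the S100 sum.

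Beyond the 10 genes, 18 further annexin and S100 genes were counted (6 annexins and 12 S100 genes), and *Anxa13* had no row. Of the 18, 5 passed the filter and 1 was called, beside 12.3% of all genes tested. *S100a16*, a widely expressed S100 gene, was counted 131, 151, 121 and 147 times in the *Bbs8*+/+ and 196, 233, 253 and 318 times in the *Bbs8*-/- libraries. Every *Bbs8*-/- library was above every *Bbs8*+/+ library. The mean rose from 51.3 ± 5.42 to 94.2 ± 14.6 CPM (SD, n = 4), a fold of 1.84 with a 95% interval of 1.49 to 2.27 and a log2 difference of 0.88 (SE 0.150, adjusted p = 3.65e-05). It was called under all 16 alternatives, between 0.79 and 0.97 on the log2 scale. The markers of surface epithelium (8 of 10 tested, 5 called higher) were higher in the same libraries, at 44.6 to 64.4 CPM in *Bbs8*+/+ and 125 to 158 CPM in *Bbs8*-/- RPE. Without *Perp*, its most abundant gene, that list was at 2.99 to 4.47 CPM and 69.1 to 92.9 CPM. *Krt5* was at 0 in every *Bbs8*+/+ library and at 9.87 to 22.8 CPM in *Bbs8*-/- RPE. *Krt12*, the keratin of the corneal epithelium, was at 0 in all 8 libraries. The summed markers of reactive glia (8 of 10 tested called higher) were higher in *Bbs8*-/- RPE too, at 236 to 319 CPM and 1356 to 1490.1 CPM. None of the reactive glia genes was at 0 throughout. The part of these marker lists in the rise of *S100a16* was not tested.

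*S100a13*, which takes part in the release of growth factors that lack a signal peptide, was between 15.7 and 32.8 CPM in *Bbs8*+/+ and between 24.9 and 49.2 CPM in *Bbs8*-/- RPE (log2 difference 0.68, SE 0.247, adjusted p = 0.0655). It passed in 5 of the 16 alternatives, among them those without *Bbs8*+/+ library 4 (0.89, adjusted p = 0.0298) and without *Bbs8*-/- library 4 (0.84, adjusted p = 0.0283). *S100a4*, a protein of fibroblasts and of motile cells, was between 5.98 and 18.3 CPM and between 1.60 and 7.90 CPM (log2 difference -0.83, SE 0.454, adjusted p = 0.277), and without *Bbs8*+/+ library 1, its highest, the difference was -0.39. *Anxa3* (log2 difference 0.66, SE 0.507, adjusted p = 0.488) and *Anxa7* (0.07, SE 0.215, adjusted p = 0.896) gave no call either, and the sign of *Anxa7* turned without *Bbs8*-/- library 3 (-0.12) and without *Bbs8*-/- library 4 (-0.00037).

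The other 13 were below the filter. *Anxa10*, *S100a2*, *S100a3*, *S100a5*, *S100g* and *S100z* had no count in any library. *S100a8* and *S100a9*, which make up calprotectin of neutrophils, reached at most 6 counts and 1 count in a library, and the neutrophil markers *Ly6g*, *Mpo*, *Elane* and *Ngp* were at 0 in all 8. *Anxa11* reached 1 count, *Anxa8*, *S100a14* and *S100a7a* at most 3 counts and *Anxa9* at most 16 counts. *Anxa11* shares exon bases with *Anxa11os*, *Anxa9* with *6330562C20Rik* and *Mindy1*, and *S100a3* and *S100a4* with *Gm42674*. Reads on shared bases may not have been assigned, so the counts of these genes are uncertain.

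Of the S100 genes counted, 14 lie on chromosome 3 between 90511034 and 93564643, a cluster of 3054 kb that holds *S100a1*, *S100a6*, *S100a11* and *S100a10* of the list. Neighbours in the cluster differed in level. *S100a1* and *S100a13* start 42 bases apart and point away from each other, with *S100a1* at 343 and 389 CPM and *S100a13* at 23.4 and 37.4 CPM in the means of *Bbs8*+/+ and *Bbs8*-/- RPE. *S100a16* and *S100a4* flank *S100a3* and *S100a2*, both at 0 in all libraries, and *S100a6*, at 111 and 116 CPM, follows *S100a5*, also at 0. All of the 8 S100 genes tested except *S100b* lie in the cluster. Among these tested cluster genes only *S100a16* was called, beside 12.3% of all genes tested. *S100b* is on chromosome 10 and the listed annexins on chromosomes 19 (*Anxa1*), 9 (*Anxa2*), 6 (*Anxa4*), 3 (*Anxa5*) and 11 (*Anxa6*).

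**Figure D4:**
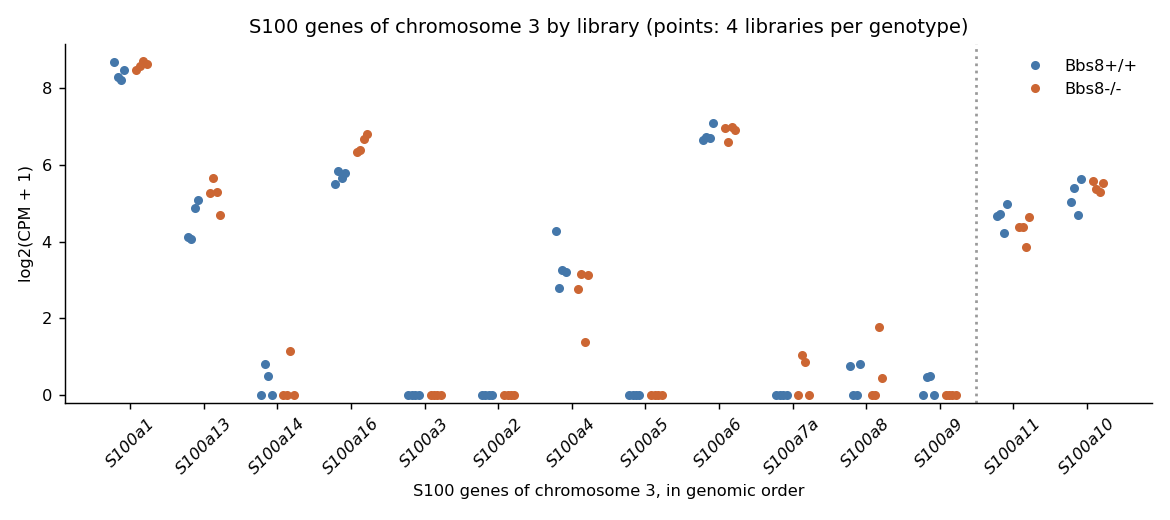
Level of the 14 S100 genes of chromosome 3 in each library as log2(CPM + 1) (vertical axis), in genomic order along the horizontal axis with equal spacing, and a dotted line at the gap before *S100a11*. Points at 0 mark libraries without a count, as for *S100a3*, *S100a2* and *S100a5*, and the blue and orange points separate for *S100a16*.

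The start regions of *S100b* and *Anxa2* are shown for the gene that fell and the annexin that came nearest to a call. They are the 250 bases before the start of the gene in RefSeq's annotation of GRCm38.p6, 5′ to 3′ on the plus strand, which is the coding strand of both, at chr10:76253586-76253835 and chr9:69453433-69453682. Capitals mark matches, on either strand, to the motifs searched, which were the AP-1 site TGANTCA, the GC box GGGCGG, the STAT site TTCNNNGAA, the TATA box TATAAA, the TEAD site GGAATG and the E-box CACGTG.
S100b upstream: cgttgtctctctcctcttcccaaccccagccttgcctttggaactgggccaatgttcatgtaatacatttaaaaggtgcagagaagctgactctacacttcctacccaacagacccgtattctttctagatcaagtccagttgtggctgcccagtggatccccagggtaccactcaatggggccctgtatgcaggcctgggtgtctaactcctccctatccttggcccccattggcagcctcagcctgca
Anxa2 upstream: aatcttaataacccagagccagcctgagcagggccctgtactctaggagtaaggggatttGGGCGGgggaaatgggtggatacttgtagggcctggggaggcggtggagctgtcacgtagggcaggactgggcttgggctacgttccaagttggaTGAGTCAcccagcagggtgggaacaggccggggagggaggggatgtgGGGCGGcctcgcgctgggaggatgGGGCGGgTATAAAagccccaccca
That of *S100b* held none of these letters, and that of *Anxa2* held 1 AP-1 site, 3 GC boxes and 1 TATA box, with no bases shared between motifs. Of the 10 genes 8 had a start region in the table used, all but *Anxa6* and *S100a10*. Among these 8, 2 held an AP-1 site, 2 a GC box, 2 a TATA box, 1 a TEAD site, 1 an E-box and 0 a STAT site. Of all 32851 start regions of the same length 6.75% held an AP-1 site, 32.7% a GC box, 7.02% a STAT site, 12.4% a TATA box, 12.6% a TEAD site and 6.02% an E-box. These matches describe letters and not binding.

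Proteins that bind annexins or S100 proteins, and their receptors, were taken as a list of 19 genes, of which 13 passed the filter, 2 were called higher and 1 lower, beside 12.3% of all genes called, with a median log2 difference of 0.18 beside 0.02 for all genes. *Ahnak*, a giant scaffold protein that binds the complex of *Anxa2* and *S100a10*, fell from 103 ± 7.11 to 74.3 ± 9.89 CPM (log2 difference -0.47, SE 0.135, adjusted p = 0.0159). Its values were 101, 111, 94.2 and 105 CPM in the *Bbs8*+/+ and 62.9, 70.0, 79.0 and 85.4 CPM in the *Bbs8*-/- libraries, with no overlap. *Myof*, a ferlin of membrane fusion and repair, rose from 23.2 ± 2.37 to 38.2 ± 5.41 CPM (log2 difference 0.72, SE 0.212, adjusted p = 0.0180), also with no overlap between 21.6 to 26.6 CPM and 30.1 to 41.3 CPM. *Pdcd6*, or ALG-2, an EF-hand protein that binds *Anxa7* and *Anxa11*, rose from 17.7 ± 3.60 to 34.8 ± 16.4 CPM (log2 difference 0.97, SE 0.277, adjusted p = 0.0146), and its libraries overlapped, at 15.3, 22.4, 18.4 and 14.5 CPM and at 46.9, 15.8, 50.1 and 26.6 CPM.

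These 3 calls were each lost when certain libraries were left out. *Ahnak* lost its call without *Bbs8*+/+ library 2 (adjusted p = 0.0661), *Bbs8*+/+ library 4 (0.0503), *Bbs8*-/- library 1 (0.0612) or *Bbs8*-/- library 2 (0.0518) and with scaling by library size alone (0.0631). *Myof* lost it without *Bbs8*+/+ library 2 (adjusted p = 0.0525), *Bbs8*+/+ library 4 (0.0564) or *Bbs8*-/- library 2 (0.0513). *Pdcd6* lost it without *Bbs8*+/+ library 4 (adjusted p = 0.0634), *Bbs8*-/- library 1 (0.0870) or *Bbs8*-/- library 3 (0.118). None of the 3 changed sign in any of the 16 alternatives. The formyl peptide receptors, which *Anxa1* engages, were near or at the limit of detection, with *Fpr1* at 0 in all libraries and *Fpr2* at no more than 3 counts. The calcium channels *Trpv5* and *Trpv6*, which the complex of *Anxa2* and *S100a10* brings to the membrane, were at 0 as well. *Ager*, the receptor of S100b, passed the filter (log2 difference 0.47, 95% interval of the fold 0.336 to 5.75) at an uncertainty that leaves its direction undetermined.

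**Figure D5:**
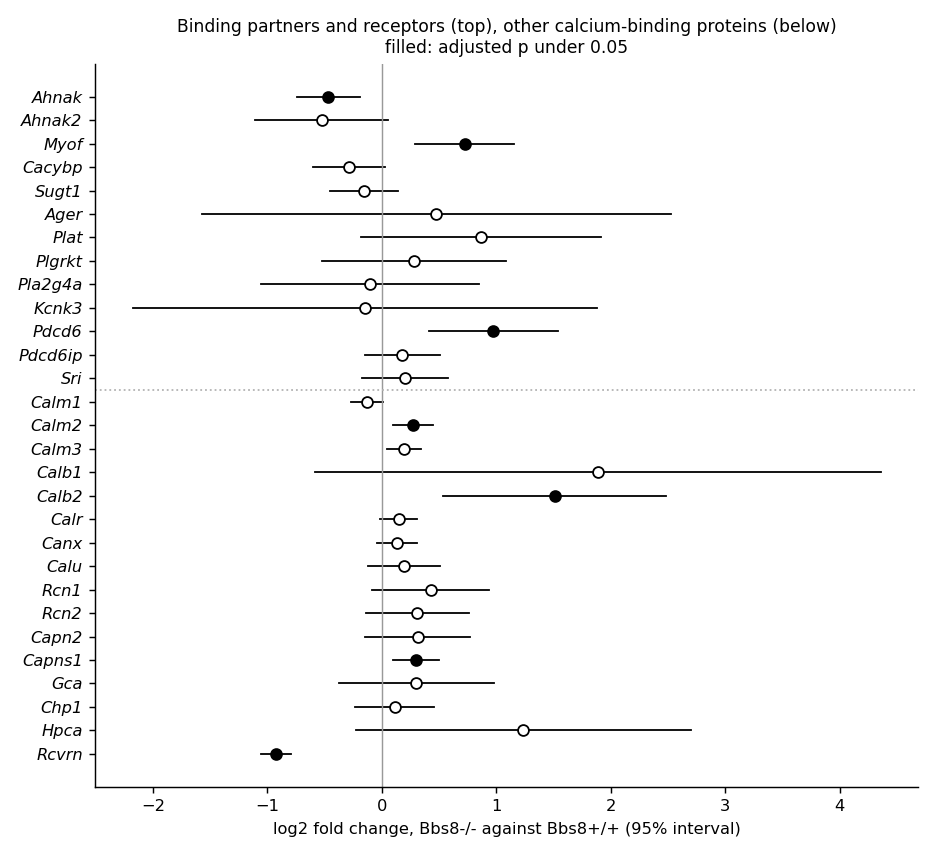
Log2 fold change of *Bbs8*-/- against *Bbs8*+/+ RPE (horizontal axis) with its 95% interval for the 13 binding partners and receptors and the 16 other calcium-binding proteins that passed the filter, filled where the adjusted p was under 0.05. Filled points are *Ahnak* and *Rcvrn* on the lower side and *Myof*, *Pdcd6*, *Calm2*, *Calb2* and *Capns1* on the higher side.

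Other calcium-binding proteins formed a list of 18 genes, of which 16 passed the filter, 3 were called higher and 1 lower, beside 12.3% of all genes called, and the median log2 difference was 0.28 beside 0.02 for all genes. *Rcvrn*, or recoverin, the calcium sensor of photoreceptors, fell from between 1667 and 1861 CPM to between 861 and 953 CPM (log2 difference -0.93, SE 0.0648, adjusted p = 4.56e-14), along with the photoreceptor markers given above. Its fold was 0.527 and that of *S100b* 0.479, a difference that was not tested. *Calb2*, or calretinin, an EF-hand protein of amacrine and ganglion cells, rose from 3.65 ± 1.89 to 10.4 ± 4.90 CPM (log2 difference 1.51, SE 0.482, adjusted p = 0.0322). The summed markers of bipolar and amacrine cells (9 of 9 tested, 1 called higher and 1 lower) overlapped between the genotypes, at 643 to 696 CPM and 607 to 697 CPM. *Slc6a9*, its most abundant gene, had means of 381 and 389 CPM, and without it the list was at 272 to 308 CPM and 226 to 275 CPM. *Pax6* was the gene called higher, from 10.2 ± 0.742 to 21.5 ± 2.34 CPM (log2 difference 1.07, SE 0.284, adjusted p = 0.00845). *Prkca* was the gene called lower (-0.56, SE 0.133, adjusted p = 0.00281). The part of these cells in the rise of *Calb2* was not tested. *Calm2*, of the 3 calmodulin genes, rose from between 356 and 441 CPM to between 432 and 507 CPM (log2 difference 0.27, SE 0.0860, adjusted p = 0.0306), and *Capns1*, the calpain regulatory subunit, from between 183 and 226 CPM to between 234 and 264 CPM (log2 difference 0.30, SE 0.0976, adjusted p = 0.0378).

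The rises of *Calm2*, *Calb2* and *Capns1* were each lost when certain single libraries were left out. All 3 were lost without *Bbs8*+/+ library 2 (adjusted p = 0.0664, 0.103 and 0.109), without *Bbs8*-/- library 1 (0.103, 0.0615 and 0.0782) and without *Bbs8*-/- library 2 (0.0507, 0.208 and 0.0785). Without *Bbs8*+/+ library 4 *Calm2* (0.114) and *Calb2* (0.118) were lost, without *Bbs8*+/+ library 3 *Capns1* (0.154), without *Bbs8*-/- library 3 *Capns1* (0.0957) and without *Bbs8*-/- library 4 *Calm2* (0.0793). The likelihood ratio test of edgeR did not call *Calm2* (0.0669) or *Capns1* (0.0580), and the fit with a replicate block did not call *Calb2* (0.0580) or *Capns1* (0.0545). The fall of *Rcvrn* was called under all 16 alternatives.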

How the data were processed

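RNA of P29 RPE was sequenced from the 3′ ends of transcripts with the QuantSeq kit, 4 libraries per genotype, assigned by their labels. The authors trimmed the reads, aligned them with STAR to mm10, and deposited counts of uniquely mapped reads per Ensembl gene, made with htseq-count, without normalization or a filter on genes. Not uniquely mapped reads (32.8% to 34.5% per library) stayed out of all totals, as did reads on no gene.

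Symbols, positions and coding sequences came from the GRCm38 GENCODE annotation and named 30934 of 31053 identifiers. The filter kept genes that reached 1 CPM in 4 or more libraries. Counts were scaled by TMM and tested in R 4.3.3 with edgeR 4.0.16 (quasi-likelihood F test, two-sided, Benjamini-Hochberg adjustment over 12889 genes, threshold 0.05). Standard errors came from the estimate and the F statistic. Fits were tested on simulated data. DESeq2 1.42.0, limma 3.58.1, scipy 1.17.1 and Biopython 1.88 were also used. The study's filter on multi-mapping reads was not repeated. Named genes were *Ttc8*, the 10 listed genes, further annexin and S100 genes past the filter, genes of the partner and calcium-binding lists past the threshold, and, of the marker lists, defining genes at or near 0 and up to 3 genes each. *Fpr1*, *Fpr2*, *Trpv5*, *Trpv6*, *Ager*, *Glul*, *Apoe* and the family members below the filter were named beyond that rule, after their values were seen. Some items are not reported here. The 10 genes and all lists were chosen with earlier results of these data known.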

Additional observations from a re-analysis of the deposited data

Results flagged for a closer look

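Among the 46 groups of 4 libraries checked (*Ttc8*, the 10 listed genes, the 5 further annexin and S100 genes past the filter, and the 7 called genes of the lists of partners and of other calcium-binding proteins, in each genotype), 6 had a library set apart from the other 3 by Dixon's test at the 95% level, which chance alone gives in about 1 of 20 groups. *Bbs8*+/+ library 4 was the highest for *Anxa6*, at 79.3 CPM beside 55.3 to 57.9 CPM, and for *S100a6*, at 136 CPM beside 100.0 to 104 CPM. *Bbs8*+/+ library 2 was the highest for *Anxa1*, at 8.22 CPM beside 4.75 to 5.32 CPM. For *Anxa5*, *Bbs8*+/+ library 3 was the highest at 45.5 CPM beside 27.8 to 29.9 CPM, and *Bbs8*-/- library 2 the lowest at 38.8 CPM beside 48.1 to 49.4 CPM. *Bbs8*-/- library 3 was the lowest for *Myof*, at 30.1 CPM beside 40.3 to 41.3 CPM. *S100b* and *S100a16* had no such library.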

How the results depend on the processing

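The falls of *Ttc8*, *S100b* and *Rcvrn* and the rise of *S100a16* were called under all 16 alternatives. Of the 10 listed genes, 0 were called higher, 2 with scaling by library size alone, 1 with edgeR's own filter and 0 to 2 with a library left out. Of the other S100 genes, 1 was called higher, and 2 with scaling by library size alone, without a filter, with edgeR's newer quasi-likelihood fit (chosen after seeing the data) and 1 to 2 with a library left out. Of the partners and receptors, 1 was called lower, 0 with scaling by library size alone and 0 to 1 with a library left out, while those called higher ranged from 0 to 2. Of the other calcium-binding proteins, 3 were called higher, 1 with edgeR's likelihood ratio test, 5 with scaling by library size alone and 0 to 3 with a library left out. Scaling by library size alone moved the median of all genes by 0.09 on the log2 scale and the calls over all genes from 704 higher and 877 lower to 1008 and 654. *Anxa1* reversed without *Bbs8*-/- library 1 (-0.022, range -0.022 to 0.30 with a library left out), and *Anxa7* without *Bbs8*-/- library 3 (-0.12) or 4 (-0.00037, range -0.12 to 0.25). The cause of these shifts was not tested.

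Libraries of the 2 genotypes share replicate numbers, but same-numbered libraries did not deviate together (correlations of -0.0630, 0.00046, 0.0127 and 0.00696), and library 1 of neither genotype correlated best with its own number. With a replicate block the calls were 650 higher and 827 lower over all genes, 1 other calcium-binding protein was higher, and the listed genes kept 0 higher and 1 lower. At 13 to 22 counts, the interval of *Anxa1* was wide, and the data do not exclude changes within it.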
